A study of Mus musculus with 3 samples.

Results

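ADP-ribosylation enzymes of the PARP family and the ubiquitin ligase Dtx3l were read in mouse macrophages given lipid A for a second time. The set was chosen by gene symbol and holds 10 of the 55536 annotated genes in the gene tables: Parp1, Parp2, Parp8, Parp9, Parp10, Parp11, Parp12, Parp14, Zc3hav1 and Dtx3l. All 10 were found. From textbook knowledge of interferon-stimulated genes, 7 of them are called interferon-inducible here (Parp9, Parp10, Parp11, Parp12, Parp14, Zc3hav1 and Dtx3l), and Parp1, Parp2 and Parp8 are called constitutive. These names come from outside the data and were not tested in them.

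Polyadenylated RNA, 1 µg per library, came from bone-marrow-derived macrophages of the C57BL/6J strain, primary phagocytes grown in culture from marrow. The cells had 100 ng/ml of lipid A during a 12 h pre-treatment, then 12 h of washout, and then the same dose again over 480 min. Lipid A is the part of bacterial lipopolysaccharide that Toll-like receptor 4 senses, although the labels' treatment fields call the agent lipoprotein A. All 3 libraries, biological replicates 1, 2 and 3, form this 1 group, so levels and their spread can be described but no effect of the treatment. The age and sex of the mice were not collected, the labels share 1 donor record, and it is not stated whether the replicates are of different animals. The spread between them may then be technical.

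PARP enzymes split NAD and attach its ADP-ribose part to proteins. Parp1 and Parp2 build chains of it at broken DNA, while most other family members add single units or none. In macrophages several of the latter are known as interferon-stimulated genes: Parp9 works in a complex with the ubiquitin ligase Dtx3l, Parp14 carries macrodomains that bind ADP-ribose, and Zc3hav1 encodes the zinc finger antiviral protein ZAP, which binds CpG-rich viral RNA and has lost the catalytic activity.

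The replicates held 24596382, 54016971 and 43127749 expected counts in order of number. Replicate 2 stood apart, with 7.13% of its counts on mitochondrially encoded genes against 1.14% in replicate 1 and 1.25% in replicate 3, and its part in the results below was not tested. All 6 macrophage markers (Adgre1, Csf1r, Cd68, Itgam, Fcgr1, Mertk) reached 10 TPM in every library, between 68.2 and 3862 TPM. Of 21 markers of other cells, 16 stayed under 1 TPM in every library and 6 had no count in any, among them Cd79a and Ly6g. Their summed level ranged from 58.8 to 135 TPM, most of it from Cd4 and Kdr. Cd4 was at 20.0, 113 and 33.6 TPM in replicates 1, 2 and 3, and Kdr at 35.2, 7.9 and 23.8 TPM. The neutrophil granule gene Ngp reached 4.97 TPM in replicate 2 against 0.06 and 0.07 TPM in the others. Cdh5, an endothelial gene, was also highest there, at 5.82 TPM. In such bulk RNA, fewer cells of a type and less RNA per cell cannot be told apart.

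The sequences that matter most for the results are those at the point where the Zc3hav1 transcripts part, since the end chosen decides whether ZAP carries the PARP-like domain. Zc3hav1 (ENSMUSG00000029826.14) lies on chromosome 6 from 38305286 to 38354603, on the minus strand of mm10. Its transcript Zc3hav1-203 encodes 996 amino acids and Zc3hav1-201 encodes 789, and both share their first 2366 coding bases. After these, Zc3hav1-203 goes on for 625 coding bases and Zc3hav1-201 for 4, stop codon included. Zc3hav1-202 has the short end too, but lacks 348 bases in frame, or 116 codons. Lower case marks the last shared coding bases and capitals the first bases of each transcript's own end, from the GENCODE M21 transcripts.
Zc3hav1-203: gagaagaggtccagaCCATCAGCCAGTGAT
Zc3hav1-201: gagaagaggtccagaGTAA

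The other sequences shown are the only matches to interferon motifs in the members' promoter windows. The windows run from 250 bases before to 50 bases after a start, come from RefSeq on GRCm38.p6, and were present for 7 members, in 8 windows, with 2 for Parp11. They were searched on both strands for the core of the interferon-stimulated response element, GAAANNGAAA, which 3.44% of all 32851 windows hold, and for the gamma-activated site, TTCNNNGAA, which 8.30% hold. Parp11 held both motifs in 1 of its windows, at 44 and 37 bases before the start, and the matches overlap. Capitals mark the match on the plus strand, and the first reads as the reverse complement of the core.
Parp11, chr6:127446786-127446815, response element core: ttccttttagTTTCGATTTCttggaacccg
Parp11, chr6:127446793-127446822, gamma-activated site: tagtttcgatTTCTTGGAAcccgtggcatg
The windows of Dtx3l, Zc3hav1, Parp12, Parp1, Parp2 and Parp8 held no match to these letters. A match is a description and not a binding site. Parp9, Parp10 and Parp14 had no window in the table.

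The first question was how high each gene lay. Levels are in TPM, a transcript abundance that corrects for transcript length and library size, and are given as mean ± SD over the 3 libraries. All 10 members reached 10 TPM in every library, as did 24.1% of protein-coding genes. At least 100 TPM in every library was reached by 5 members (Parp14, Parp12, Parp9, Dtx3l and Zc3hav1), against 4.04% of protein-coding genes. Without replicate 2, Parp11 and Parp10 reached it too, which made 7 members beside 5.3% of protein-coding genes. The median of the members' means was 104 TPM, beside 15.1 TPM for 10350 protein-coding genes detected at 1 TPM in at least 1 library. Every value of an interferon-inducible member, from 55.3 to 271 TPM, lay above every value of a constitutive one, from 21.5 to 46.5 TPM. This full separation held in the first of 2 quantifications of the same reads, which gives the levels here. In the second, Parp10 lay below Parp8 in replicate 2, at 46.9 against 48.1 TPM. The difference of the group medians within a library was 2.38 on the log2 scale in replicate 1, 2.21 in replicate 2 and 1.94 in replicate 3, a mean of 2.18 ± 0.23 or 4.53-fold.

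**Figure D1:**
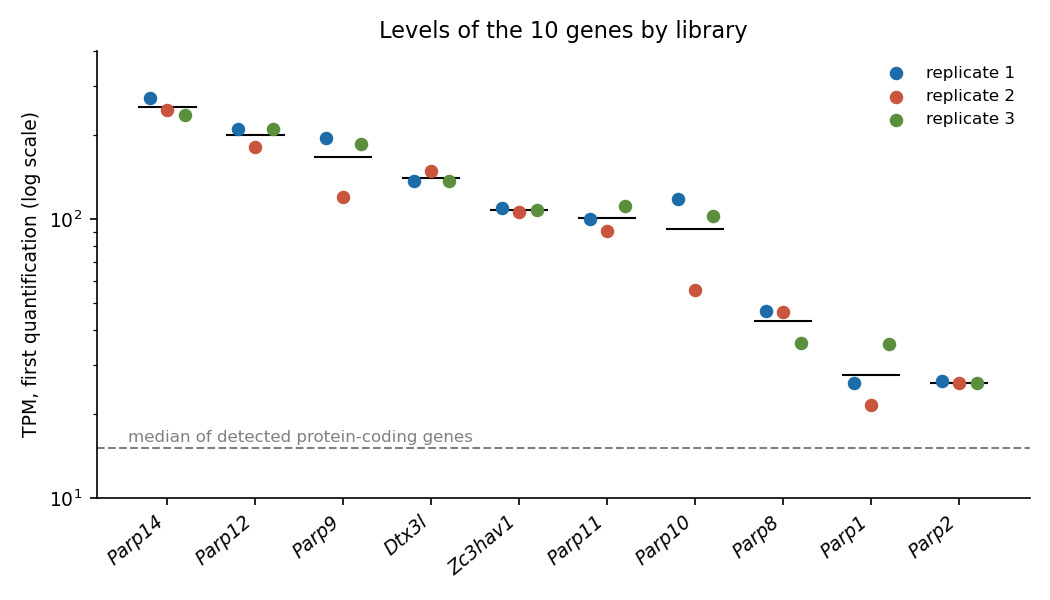
Level of each gene in TPM of the first quantification (log axis) in replicates 1, 2 and 3 (points) with the 3-library mean (black line), in order of the means. The 7 interferon-inducible genes lie above 55 TPM in each library and the 3 constitutive ones below 47 TPM, and the dashed line is the median of detected protein-coding genes, 15.1 TPM.

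Parp14 (ENSMUSG00000034422.14, chromosome 16, 35832874 to 35871544, minus strand), which attaches single ADP-ribose units and reads them through its macrodomains, was the highest member. It was read at 271, 245 and 236 TPM in replicates 1, 2 and 3, a mean of 251 ± 18.0 TPM, and 94.6% of detected protein-coding genes lay lower. It ranked first among the members in every library. Its range did not overlap that of Parp12, the next in order, in the first quantification. In the second the ranges overlapped, at 180 to 250 TPM for Parp14 and 151 to 189 TPM for Parp12.

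Parp9 (ENSMUSG00000022906.15, chromosome 16, 35938470 to 35972605, plus strand), an ADP-ribose-binding partner of Dtx3l, gave 195, 120 and 185 TPM, a mean of 166 ± 40.7 TPM. Replicate 2 was the low library, and without it the mean was 190 TPM. Dtx3l (ENSMUSG00000049502.17, chromosome 16, 35926511 to 35939151, minus strand), the ligase of the pair, gave 137, 148 and 137 TPM, a mean of 140 ± 6.33 TPM. Here replicate 2 was the highest, and the ranges of the genes overlapped. The log2 ratio of Parp9 to Dtx3l was 0.51 in replicate 1, -0.30 in replicate 2 and 0.43 in replicate 3. Its mean, 0.21 ± 0.45, was smaller than its spread, and the smallest p of an exact sign-flip test on 3 libraries is 0.25. Parp14 lay above Parp9 in all 3 libraries, by 0.48, 1.03 and 0.35 on the log2 scale, a mean of 0.62 ± 0.36.

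These 3 genes are neighbours. Parp9 and Dtx3l run head to head on opposite strands: the main Parp9 transcript, Parp9-201, starts 140 bases inside Dtx3l-201, and Parp9-203 starts 681 bases inside it. They share 458 exonic bases, 35938694 to 35939151 on chromosome 16. The gene Parp14 starts 54967 bases beyond the last base of Dtx3l-201. Kpna1, a nuclear import receptor gene, was the one other protein-coding gene that starts within 100 kb of the Dtx3l start, and it was read at 17.4 ± 1.57 TPM. Each of the 3 members exceeded it in every library.

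**Figure D2:**
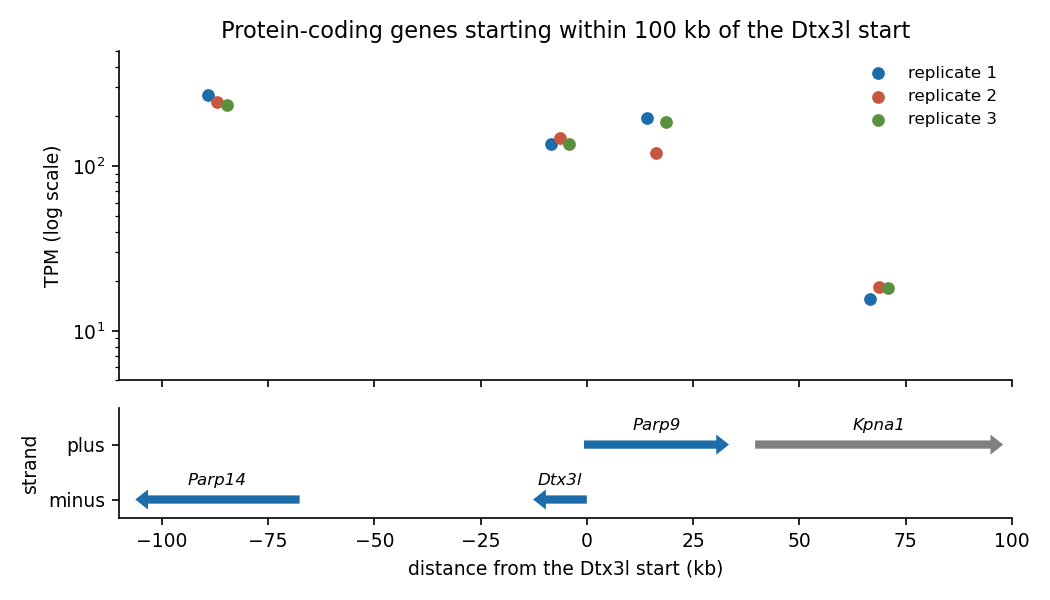
Upper panel, TPM (log axis) in replicates 1, 2 and 3 for the protein-coding genes that start within 100 kb of the Dtx3l start, each drawn at the middle of its gene with the replicates set slightly apart. Lower panel, extent and direction of the genes by distance from the Dtx3l start in kb, members in blue; Parp14, Dtx3l and Parp9 lie between 120 and 271 TPM and Kpna1 near 17 TPM.

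The overlap of Parp9 and Dtx3l showed in how reads were assigned. Parp9 was given 8169.05, 13194.23 and 14134.21 expected counts, and Dtx3l was given 11639.95, 31153.77 and 21482.79. None of these is whole, but their sums are 19809.00, 44348.00 and 35617.00. All other members had whole counts in all 3 libraries, within 0.005, except Parp10 in replicate 3. Reads were therefore divided between Parp9 and Dtx3l by the authors' estimate, and the levels of both carry that division.

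In its pattern over the libraries Parp9 was not close to its neighbours Dtx3l and Parp14, which lay nearer to each other. Likeness was measured as the largest gap, over the 3 libraries, between the genes' log2(TPM + 1) deviations from their own means, across the 6270 protein-coding genes whose mean was 10 TPM or more. Nearest to Parp9 were Ranbp10, Rras and Tubb6, at gaps of 0.0085 to 0.012, while Parp14 ranked 2658 and Dtx3l 3466. Dtx3l had Pum2, Fam13b and Mfap1a nearest, with Parp14 at rank 678 and Parp9 at rank 3669. For Parp14 the nearest were Nup54, Fut8 and Sik3, and Dtx3l ranked 487 and Parp9 2881. With 3 libraries these ranks describe the libraries only.

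Zc3hav1, the antiviral RNA-binding member, was among the steadiest in TPM, with 109, 106 and 107 TPM in replicates 1, 2 and 3, a mean of 107 ± 1.45 TPM. The same gene in counts was not steady. Scaled to library size by TMM, without length, it gave a CPM of 310, 422 and 283, highest in replicate 2. The effective length used for its TPM was 4129, 4587 and 4060 bases, longest in replicate 2, where the transcript mix differed. Replicate 2 stood at 1.425 times the mean of the others in CPM, 0.981 in TPM and 1.12 in length. The same ratios were 1.424, 1.08 and 1.016 for Dtx3l and 1.481, 1.124 and 1.022 for Parp8. The ratio was higher in CPM than in TPM for every member but Parp10, so this gap was not particular to Zc3hav1. With mitochondrially encoded genes left out of the scaling the TPM of Zc3hav1 was 117 ± 9.24.

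The transcript mix of Zc3hav1 moved between the ends shown above. Transcripts with the long end (Zc3hav1-203 and Zc3hav1-204), which encode the PARP-like domain, made up 68.1% of its TPM in replicate 1, 92.7% in replicate 2 and 65.6% in replicate 3. The short end took 31.9%, 7.28% and 34.4%, or 34.7, 7.72 and 36.9 TPM. Zc3hav1-201, whose end is the 4 bases GTAA, was read at 18.8 TPM in replicate 1 and 18.8 TPM in replicate 3 and was listed at 0 in replicate 2. The second quantification, made separately from the same reads, also listed it at 0 in replicate 2 and gave the short end 36.0%, 7.29% and 39.3%. Without replicate 2 the short end had a mean share of 33.1% in the first quantification. Replicates 1 and 3 lay close together for this share and replicate 2 lay apart, and no test between libraries of 1 group was made.

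Parp12 (ENSMUSG00000038507.6, chromosome 6, 39086410 to 39118349, minus strand), another member with CCCH zinc fingers, was read at 209, 181 and 210 TPM, a mean of 200 ± 16.7 TPM. It was second in every library. Replicate 2 was the low one in TPM, but with mitochondrially encoded genes left out of the scaling the SD was 2.16 around a mean of 218 TPM. Zc3hav1 lay below Parp12 in all 3 libraries, by a log2 ratio of -0.94, -0.77 and -0.97. The starts of the 2 genes are 763746 bases apart on the same strand of chromosome 6. Around them the protein-coding genes that start within 100 kb were low: Kdm7a, a histone demethylase gene near Parp12, was at 8.06 ± 1.06 TPM, and near Zc3hav1 Ubn2 was at 4.68 ± 1.29 TPM. Ttc26, a cilium gene, was at 0.37 ± 0.26 TPM. The Zc3hav1 relative Zc3hav1l, which starts 55344 bases away, was at 0.11 ± 0.02 TPM.

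Parp11 (ENSMUSG00000037997.12, chromosome 6, 127446840 to 127494261, plus strand), which adds single ADP-ribose units, was read at 100.1, 90.6 and 111 TPM, a mean of 101 ± 10.2 TPM. Replicate 2 was the lowest and replicate 3 the highest. Parp11 was the one member with a higher mean in the second quantification, which gave 102, 137 and 146 TPM, a mean of 128 ± 23.1 TPM. Its transcript Parp11-204, of 733 bases with 78 in no other Parp11 transcript, was listed at 0 in every library by the first quantification and read at 25.1, 39.6 and 42.9 TPM by the second. Without it the second quantification gave 77.0, 97.7 and 103 TPM. The share of Parp11-201, which encodes 331 amino acids, was 47.2% ± 1.80 in the first and 16.3% ± 3.34 in the second. Parp11-202, which encodes 248 amino acids and starts at the promoter window printed above, was at 36.6% ± 1.57 and 38.6% ± 4.26.

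Parp10 (ENSMUSG00000063268.12, chromosome 15, 76231174 to 76243441, minus strand), which adds single ADP-ribose units, varied most. It was read at 118, 55.3 and 102 TPM, a mean of 91.8 ± 32.5 TPM, with replicate 2 low. Without replicate 2 the mean was 110 TPM. The gap of replicate 2 to the others was larger for the transcripts that encode the whole protein of 960 amino acids (Parp10-201 and Parp10-202), which were at 94.7, 18.7 and 86.6 TPM. They made up 80.3%, 33.7% and 84.8% of the gene.

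The main transcript in replicate 2 was Parp10-205, a fragment of 1047 bases at the end of the gene that is annotated as a target of nonsense-mediated decay. It was read at 15.4, 36.5 and 8.55 TPM, from 208, 1254 and 205 expected counts, and took 13.1%, 65.9% and 8.38% of the gene. The second quantification gave it 1.98%, 47.6% and 1.20%, so both put it highest in replicate 2 and disagreed on its level in the others. Of its bases 630 lie in protein-coding Parp10 transcripts, 417 lie in no other Parp10 transcript, and 205 lie in exons of Plec, a cytoskeletal linker gene on the same strand. Plec itself was lowest in replicate 2, at 25.7, 7.41 and 14.2 TPM. The effective length of Parp10 was 2660 and 2686 bases in replicates 1 and 3 and 1595 in replicate 2. On TMM-scaled counts, which use no length, Parp10 had a CPM of 216, 76.6 and 178, and replicate 2 stood at 0.389 of the mean of the others, against 0.503 in TPM.

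**Figure D3:**
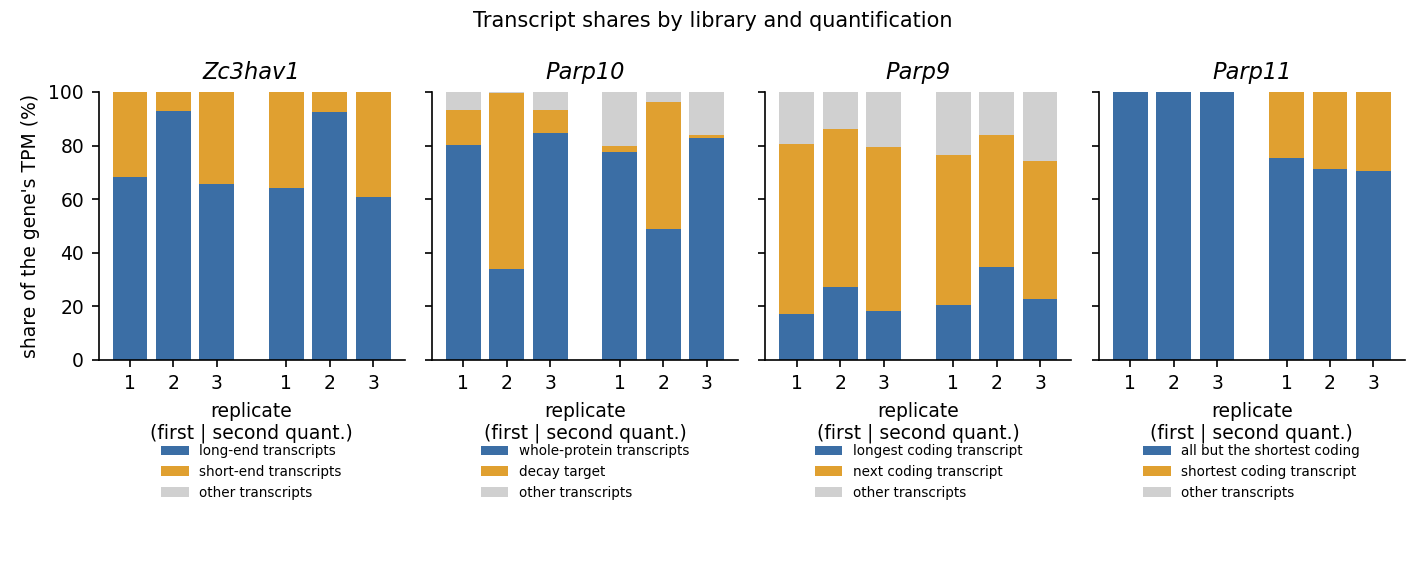
Share of each gene's TPM (%) taken by named transcripts in replicates 1, 2 and 3, first quantification at left and second at right in each panel; grey is all other transcripts. In both quantifications replicate 2 has the smallest share of the short Zc3hav1 end (7.28% in the first, 7.29% in the second) and the largest of Parp10-205 (65.9% and 47.6%), and Parp11-204 appears in the second quantification but is at 0 in the first. The longest coding Parp9 transcript is Parp9-203 and the next Parp9-201; the decay target of Parp10 is Parp10-205, and the shortest coding Parp11 transcript is Parp11-204.

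Parp9 also has a pair of main coding transcripts. Parp9-203 encodes 830 amino acids and was at 33.5, 32.6 and 33.6 TPM, while Parp9-201, which encodes 597, was at 123, 70.5 and 113 TPM. The low value of Parp9 in replicate 2 was thus not one of Parp9-203 in the first quantification. It was one of Parp9-201 and of the transcripts annotated as non-coding or as decay targets, which were at 37.9, 16.5 and 38.0 TPM. In the second quantification, Parp9-201 was again lowest in replicate 2 (75.1, 59.5 and 86.2 TPM), and Parp9-203 was highest there (27.6, 42.1 and 37.3 TPM). The start of Parp9-201 lies in the bases shared with Dtx3l.

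Among the constitutive members, Parp8 (ENSMUSG00000021725.9, chromosome 13, 116854820 to 117025537, minus strand), which adds single ADP-ribose units, led with 46.5, 46.4 and 36.0 TPM, a mean of 43.0 ± 6.05 TPM. In the first quantification it was eighth in every library, above Parp1 and below Parp10 with no overlap of ranges. Its lowest value, 35.97 TPM, was close to the highest of Parp1, 35.67 TPM. In the second quantification Parp8 lay above Parp10 in replicate 2 (48.1 and 46.9 TPM). There it also lay below Parp1 in replicate 3 (32.8 and 40.2 TPM). Parp8-203, which encodes 852 amino acids, took 63.7% ± 8.59 of it and Parp8-201, with 891, took 29.9% ± 6.18.

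Parp1 (ENSMUSG00000026496.11, chromosome 1, 180568924 to 180601254, plus strand), the main sensor of DNA breaks, was read at 25.7, 21.5 and 35.7 TPM, a mean of 27.6 ± 7.29 TPM. Replicate 3 was the high library. Parp2 (ENSMUSG00000036023.6, chromosome 14, 50807841 to 50821301, plus strand), the other break-dependent enzyme, was at 26.1, 25.7 and 25.7 TPM, a mean of 25.9 ± 0.25 TPM. The ranges of Parp1 and Parp2 overlapped, and their log2 ratio was -0.02, -0.26 and 0.47, a mean of 0.06 ± 0.37. Parp14 lay 3.21 ± 0.42 above Parp1 on the log2 scale, 9.23-fold, and higher in all 3 libraries (3.39, 3.51 and 2.72).

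The order of the means left 5 neighbouring pairs whose ranges overlapped. These were Parp12 and Parp9, Parp9 and Dtx3l, Zc3hav1 and Parp11, Parp11 and Parp10, and Parp1 and Parp2. The ranges did not overlap between Parp14 and Parp12, Dtx3l and Zc3hav1, Parp10 and Parp8, or Parp8 and Parp1. That holds for the first quantification only, since in the second the ranges of each of these pairs overlapped. In 4 genes 1 protein-coding transcript held over 90% of the level in the mean: Dtx3l-201 with 98.9%, Parp14-201 with 97.8%, Parp1-201 with 95.2% and Parp12-201 with 91.1%. In the second quantification Dtx3l-201 and Parp14-201 stayed above 90%, while Parp12-201 held 88.7% and Parp1-201 85.4%. Parp2 was more mixed, with 71.5% ± 8.28 in Parp2-201 and 28.5% ± 8.28 in transcripts annotated as non-coding or as decay targets. The latter share rests in part on short transcripts with few counts. In replicate 1, Parp2-203 (342 bases) had 3.58 TPM from 6.27 expected counts and Parp2-208 (423 bases) 3.44 TPM from 10.1. Parp2-201 had 16.5 TPM from 459 expected counts there. Transcripts annotated as non-coding or as decay targets took 18.0% ± 3.63 of Parp9. For Parp10 they took 33.7% ± 28.3, but 17.5% without replicate 2, below Parp2 (28.7%) and Parp9 (20.0%) in the same libraries. In the second quantification they took 37.3% of Parp2 and 30.2% of Parp10. For Parp1 the quantifications differed in replicate 3, where such transcripts took 2.75% in the first and 25.1% in the second.

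The next question was whether the 3 libraries differed in these genes by more than counting error. In a chi-square test of the counts against library sizes scaled by TMM, adjusted by Benjamini-Hochberg over 11932 genes, all 10 members differed, as did 87.9% of genes. Without replicate 2, Parp2, Parp11 and Parp12 no longer differed, leaving 7 members beside 55.0% of genes. Without replicate 3, Parp1 dropped out, leaving 9 members beside 76.4% of genes.

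Whether any member varied more than other genes of its level was asked of the quasi-likelihood fit of edgeR. No member did, and neither did any other gene (0%) after Benjamini-Hochberg adjustment. Before adjustment 503 of the 11932 genes and 0 members passed 0.05. Parp10 came closest among the members: its residual variance was 4.17 times that predicted for its level, with an adjusted p of 0.933 from edgeR, and 9.34% of the tested genes had a larger ratio. Zc3hav1 and Dtx3l, at 0.62 and 0.55 times the predicted variance, had 57.9% and 61.4% of the tested genes above them.

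The deviation of replicate 2 ran with base composition. Taking each gene's log2(TPM + 1) minus its own mean, centred on the library's median, replicate 2 deviated by a median of 0.21 in the 2585 detected genes with the lowest GC content and by -0.35 in the 2585 with the highest. Parp10, with 58.0% GC the richest member, deviated by -0.45, and Parp1, at 52.7%, by -0.12. Parp9 deviated by -0.24 at a GC content of 44.7%, the lowest of the members and on the side where the median gene was positive. The other 7 members, at 45.9% to 50.6% GC, deviated by 0.06 to 0.32. Across the members Pearson's r between GC content and this deviation was -0.69, and across 10339 detected genes it was -0.39. The members' value rests in large part on Parp10, which had their highest GC content and their lowest deviation. A value without Parp10 is not given, so the members are not shown to follow GC content more closely than other genes. The points behind both values share libraries and are given as a description. The part of GC content in the low value of Parp10 was not tested.

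**Figure D4:**
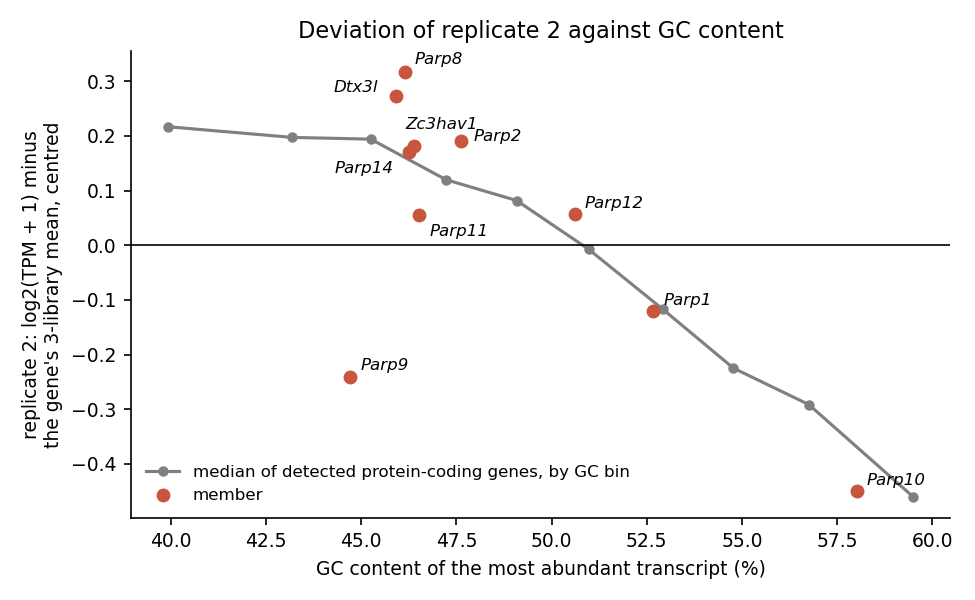
Deviation of replicate 2 (log2(TPM + 1) minus the gene's 3-library mean, centred on the library median) against the GC content (%) of each gene's most abundant transcript, for the 10 members (red) and as the medians of 10 bins of detected protein-coding genes by GC (grey). Parp10 lies at -0.45 among the high-GC genes with low medians, and Parp9 lies at -0.24 where the grey medians are above 0.

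The dependence on how reads were assigned was tested with limma on the within-library differences of log2(TPM + 1), second minus first quantification. With an adjusted p threshold of 0.05 and a minimum mean difference of 0.5, 0 of 10 members differed, beside 3.21% of 10203 genes. Before adjustment 620 genes and 0 members passed 0.05. The median difference over all these genes was -0.42 in replicate 1, 0.05 in replicate 2 and -0.09 in replicate 3, and 9 of the 10 members were lower in the second quantification in replicate 1. Relative to these medians, Parp11 was higher in the second by 0.49 (SE 0.038, adjusted p of 0.0221 from limma), just under the minimum, in 3 of 3 libraries. It was the one member past the threshold without the minimum, beside 2.70% of genes, and with the minimum 0 members and 1.57% of genes passed. This centred fit was chosen after seeing the data.

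**Figure D5:**
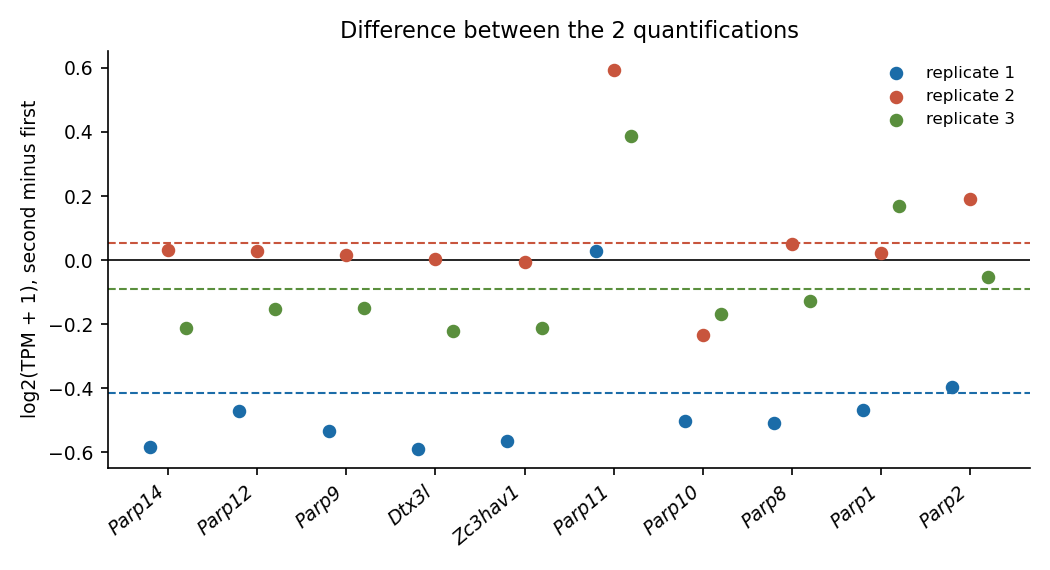
Difference of log2(TPM + 1) between the quantifications, second minus first, for each gene in replicates 1, 2 and 3 (points), with each library's median over 10203 genes as a dashed line of the same colour. Parp11 lies above the median line in all 3 libraries, and every point of the other members lies nearer to its line.

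Around the members, 46 genes of the same pathways were read in 7 lists. By the limma test, none of the 37 tested list genes was higher and none was lower in the second quantification, beside 3.21% of 10203 genes that differed. By edgeR 0 of 39 varied more than genes of their level, as did 0% of all 11932 genes. The chi-square test found 36 of 39 beyond counting noise, beside 87.9% of the 11932 genes, so that count is not particular to the lists. Of the other PARP family genes, 5 of 7 reached 10 TPM in every library, led by Parp3, a DNA break enzyme, at 54.1 ± 4.02 TPM. Tnks2, a chain-building tankyrase, was at 37.7 ± 8.91 TPM, the vault protein gene Parp4 at 28.1 ± 6.47 TPM and Parp16, of the endoplasmic reticulum, lowest at 0.71 ± 0.21 TPM. None of these 7 reached the mean of the lowest interferon-inducible member.

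The enzymes that remove ADP-ribose were lower, with 3 of 8 at 10 TPM in every library. Adprh, which cleaves ADP-ribose from arginine, was highest at 39.7 ± 17.3 TPM, with replicate 2 low (48.1, 19.8 and 51.2 TPM). Oard1, which removes it from glutamate, was at 17.3 ± 5.31 TPM and Parg, which cuts the chains, at 15.3 ± 2.51 TPM. Adprhl1 was at 0 TPM, with a single count in replicate 2.

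Of 6 partners of Parp1 at DNA breaks, 3 reached 10 TPM in every library: the repair polymerase gene Polb at 57.5 ± 3.44 TPM, Hpf1, which directs Parp1 to serine, at 44.9 ± 10.1 TPM and the scaffold Xrcc1 at 19.4 ± 8.59 TPM. Aplf was the lowest of the 6 at 1.97 ± 0.65 TPM. Of the Deltex relatives of Dtx3l and the chain-reading ligase Rnf146, none reached Dtx3l: Dtx2 was at 41.6 ± 10.8 TPM, Rnf146 at 20.2 ± 1.31 TPM and Dtx4 at 9.16 ± 2.10 TPM, and Dtx1 had no count. The proteins known to work with ZAP were unequal. Trim25, the ubiquitin ligase that ZAP needs, was at 138 ± 23.8 TPM, N4bp1 at 36.9 ± 5.05 TPM and the nuclease gene Khnyn at 9.24 ± 4.59 TPM.

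For the supply of NAD, 3 of 12 genes reached 10 TPM in every library. Nampt, the rate-limiting enzyme of NAD salvage, was at 185, 312 and 162 TPM, a mean of 219 ± 80.7 TPM. Nadk, which makes NADP, was at 123 ± 28.8 TPM. The NAD-consuming ectoenzyme gene Cd38 was at 62.6 ± 31.7 TPM, and Sarm1 and Nmnat2 had no count. Of the interferon signal genes, which the interferon-inducible members are known to answer to, Stat2 was at 437 ± 93.4 TPM and Irf1 at 203 ± 48.4 TPM. Irf9 was at 71.7 ± 7.26 TPM and Ifnb1 was lowest at 4.76 ± 4.46 TPM. No member reached the mean of Stat2.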

How the data were processed

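RNA from 3 libraries of 1 group was analysed from 2 sets of tables on mm10 and GENCODE M21, per the labels and the file headers. Aligner and tools: not given in the sources used here. Expected counts, which divide a read among the transcripts it may come from, were deposited in the first tables, per their headers. TPM stand beside them, and the deposited transcript tables add the percent of the gene's TPM that falls to a transcript, per the file headers. The deposited second tables hold estimated counts and TPM per transcript, summed to genes here through M21. Expected counts were rounded for count tests in R 4.3.3 with edgeR 4.0.16 (TMM factors 1.01, 0.886 and 1.12, filterByExpr). Entries that are no annotated gene (0.0875%, 0.0464% and 0.0636% of counts) were left out. Quantifications were compared with limma 3.58.1. DESeq2 1.42.0 gave alternative size factors. All tests ran on the whole table with Benjamini-Hochberg adjustment and a threshold of 0.05. They were also run on simulated data. The simulated spread between libraries was smaller than the edgeR trend at the members' levels, and no library-wide shift between quantifications was simulated. Those runs therefore do not give the power of the tests in these data. Log2 ratios used TPM + 0.1.

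Genes named besides the 10 members are the 3 highest and the lowest of each list, the 3 nearest in pattern, and protein-coding genes that start within 100 kb. Genes that this rule names but that are withheld are not reported here. Members and lists were chosen with earlier results of these data known. Markers named are the whole macrophage list and examples of other cells, chosen after their values were seen. Replicate numbers pair nothing. Promoter windows without a motif match are not printed. Alternatives were another quantification, scaling, pseudocount, filter or size factor and leaving out each library.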

Additional observations from a re-analysis of the deposited data

How the results depend on the processing

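Each level stayed within its SD after TPM were divided by the TMM factor, at 0.983 to 1.01 times the main one. These factors lie on both sides of 1, so the division could hardly move a 3-library mean. It did change the SD, in both directions. The SD rose from 1.45 to 12.1 TPM for Zc3hav1 and from 6.33 to 23.0 TPM for Dtx3l. It fell from 10.2 to 1.80 TPM for Parp11 and from 16.7 to 11.0 TPM for Parp12. Leaving out 1 of 3 libraries cannot move a mean by more than its SD, so the leave-outs could not test the levels either. The levels were 0.858 to 1.03 times the main ones without replicate 1. They were 0.960 to 1.20 times without replicate 2 and 0.854 to 1.08 times without replicate 3. The second quantification moved 6 of 10 levels by more than their SD, and leaving out mitochondrially encoded genes moved 5 of 10. Over all 10 members the levels were 0.801 to 1.28 times the main ones in the former and 1.07 to 1.10 times in the latter. Without length correction (CPM) the log2 ratios were 2.46 for interferon-inducible over constitutive members, 2.11 for Parp14 over Parp9, 4.24 for Parp14 over Parp1, 1.47 for Parp1 over Parp2 and -0.28 for Zc3hav1 over Parp12. Parp9 over Dtx3l turned to -0.78. Longer transcripts give more counts at the same level, so these ratios are not per length. Without replicate 3 the ratio of Parp1 to Parp2 turned to -0.14, with a range of -0.14 to 0.22 over the leave-outs. The counts of members at 10 TPM (10) and of excess variance (0 by edgeR) were the same under all their alternatives. The count at 100 TPM, 5, was 4 in the second quantification and with TPM divided by the TMM factor, 6 without mitochondrially encoded genes, and 5 to 7 over the leave-outs, with 7 without replicate 2. The count of members beyond counting noise ranged from 7 to 10 over the leave-outs. The count of members that differ between quantifications was 0 in limma, and 1 (Parp11) only when centred with no minimum difference, an alternative chosen after seeing the data. The second quantification moved 4 of 10 main transcript shares by more than their SD. No paired analysis was possible because the series holds 1 group and the replicate numbers pair no samples. The depth of replicate 1 was the lowest, and 3 libraries of 1 donor record limit every SD given here.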
